A study of Rattus norvegicus and Sus scrofa and Bos taurus with 188 samples.

Results

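Genes of programmed cell death were described in pig morulae that carry the mark PG, which the labels of other stages in the series spell out as parthenogenetic activation, the start of development from an egg with no sperm. The morula is the solid ball of cells before the blastocyst cavity forms. The series has 188 samples in 90 groups of 4 species, and the values here belong to 1 of these groups, 4 Smart-seq2 RNA libraries of PG morulae with no treatment named, merged into 1 column of FPKM (fragments per kilobase of transcript, scaled to the mapped fragments of the library). The labels name neither the age of the embryos, nor how many went into a library, nor whether the 4 libraries came from separate pools. The members were taken by gene symbol: the BCL2 family, caspases, inhibitors of apoptosis (IAP), death receptor adaptors, RIPK kinases, AIFM, TNFRSF and PDCD genes and DIDO1. They were 61 of the 15877 gene names in the table, with 144 of its 37571 transcript rows, and none lay in the 474 rows at 0 that end the table. A gene's level is its highest row. The merged column gives no spread between libraries, so no value below has an error, an n or a test. Every comparison is between genes of the same column. The levels are of RNA, and protein was not measured, so a ratio between genes is no ratio between their proteins.

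Apoptosis runs through a mitochondrial route and a receptor route, which are connected. In the mitochondrial route, BH3-only proteins sense stress and engage the guard proteins of the BCL2 family, and the effectors BAX and BAK1 then open the outer mitochondrial membrane. Cytochrome c leaves the mitochondrion, APAF1 assembles around it and activates CASP9, and CASP9 activates the executioner caspases, while DIABLO, released alongside, removes the block that IAP proteins place on caspases. In the receptor route, ligands of the tumour necrosis factor family bind receptors with a death domain, which recruit FADD and CASP8. CFLAR competes with CASP8 there, and BID, once cut by CASP8, carries the signal to mitochondria. Preimplantation embryos of many mammals are known to contain some apoptotic cells, most often reported from around the morula and blastocyst stages.

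At 1 FPKM or more stood 40 of the 61 members (65.6%), beside 48.8% of all genes in the table. At 10 FPKM or more the shares were 24.6% of members (15 genes) and 20.2% of all genes. The other 21 members comprised 14 with a value between 0 and 1 FPKM and 7 for which the table lists 0. The median member stood at 2.04 FPKM and the median gene of the table at 0.916 FPKM. Among genes at 1 FPKM or more, the medians were 6.73 and 6.89 FPKM. With all rows added, the members held 0.554% of the FPKM total of the table. In these bulk libraries a low level in every cell and a high level in few cells cannot be told apart.

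**Figure D1:**
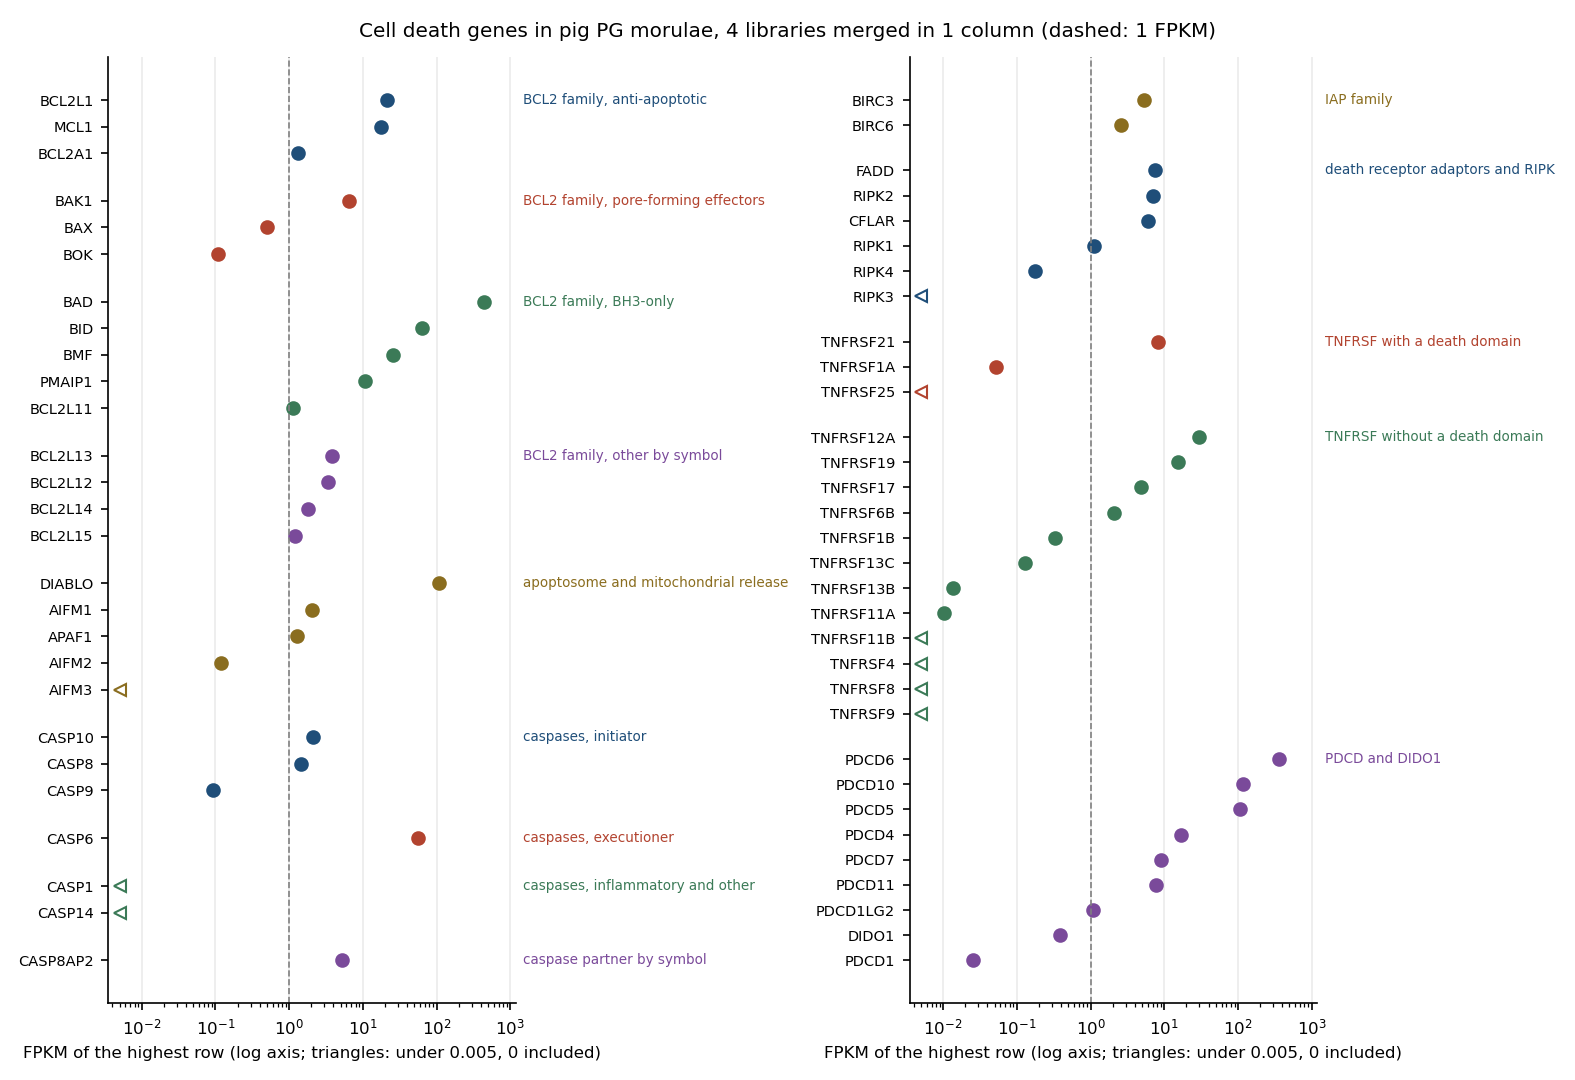
FPKM of the highest row of 59 of the 61 members on a log axis, grouped by role, with a dashed line at 1 FPKM; open triangles mark values under 0.005 FPKM, 0 included. BAD (435 FPKM), PDCD6 (365 FPKM), PDCD10 (116 FPKM), DIABLO (109 FPKM) and PDCD5 (108 FPKM) are the 5 members above 100 FPKM, and 9 members have triangles.

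Levels of marker genes of cell types are given beside the label. The lists were chosen with earlier results of these data known. Whether these markers tell a morula from other stages, or a PG embryo from a fertilised one, was not tested. All 8 early embryo markers stood above 1 FPKM, from SOX2 at 5.36 to TFAP2C at 194 FPKM. None of 11 measured genes listed for cumulus and granulosa cells, the cells around the egg, reached 1 FPKM, the matrix genes COL1A2 and LUM among them. CYP19A1 was the highest of them at 0.835 FPKM, and TNFAIP6, FSHR and FOXL2 were listed at 0. None of 7 fibroblast markers reached 1 FPKM, with a summed level of 1.45 FPKM. Of 10 blood and immune markers 3 did, AIF1 at 7.93, CD14 at 2.38 and SPI1 at 1.21 FPKM, while the pan-leukocyte gene PTPRC stood at 0.0269 FPKM and CSF1R was listed at 0. Their summed level was 13.5 FPKM.

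The guard genes of the BCL2 family, whose proteins hold the effectors in check, were measured for 3 of the 6 listed. BCL2L1, the gene of BCL-xL, stood at 21.1 FPKM, and MCL1, which encodes a guard protein of short half-life, at 17.7 FPKM. BCL2A1, a guard gene best known from blood cells, was far lower at 1.30 FPKM. The 2 higher genes lay close together, with BCL2L1 at 1.19 times MCL1 on the highest row, and with all rows added the order turned, at 33.1 FPKM for BCL2L1 and 33.7 FPKM for MCL1. Both genes are known to give, by splicing, a long form that restrains death and a short form that promotes it. Which rows are which form was not determined here. BCL2, BCL2L2 and BCL2L10 were not analysed here.

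Of the pore-forming effectors, BAK1 was the one at 1 FPKM or more, at 6.51 FPKM. BAX stood at 0.497 FPKM, the highest member below 1 FPKM, and BOK, a relative of both, at 0.110 FPKM. BAK1 was 13.1 times as high as BAX, and both rows of BAX together came to no more than its highest row (0.497 FPKM). Of the guard genes, BCL2L1 and MCL1 were above both BAK1 and BAX, while BCL2A1, at 1.30 FPKM, lay below BAK1 and above BAX. BCL2L1 stood at 3.24 times BAK1 and 42.5 times BAX, and MCL1 at 2.72 times BAK1 and 35.7 times BAX. With all rows added these ratios were 4.34 and 66.7 for BCL2L1, and 4.41 and 67.7 for MCL1.

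The BH3-only genes, which encode the stress sensors of the family, were all at 1 FPKM or more in the 5 measured cases, beside 48.8% of all genes. Their median and their highest gene, BAD, were above those of any other group in the family. BAD, whose protein is switched by phosphorylation through growth factor signals and binds BCL-xL, stood at 435 FPKM. It was the highest of the 61 members, rank 94 of all 15877 genes, and 20.6 times as high as BCL2L1 (13.3 times with all rows added). BID, the link between the receptor and the mitochondrial route, followed at 63.8 FPKM. BMF, a sensor tied to the cytoskeleton and cell detachment, stood at 25.6 FPKM, and PMAIP1, the NOXA gene and a target of p53 whose protein binds MCL1, at 10.7 FPKM. BCL2L11, the gene of the broad-acting sensor BIM, was the lowest of the group at 1.13 FPKM. BIK and BBC3 were not analysed here. The group median was 25.6 FPKM, beside 17.7 FPKM for the guard genes and 0.497 FPKM for the effectors.

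The other genes that carry the family's symbol were all low and above 1 FPKM. BCL2L13, which encodes a mitochondrial outer membrane protein and receptor for mitophagy, stood at 3.80 FPKM, BCL2L12 at 3.32, BCL2L14 at 1.78 and BCL2L15 at 1.19 FPKM. In all, 13 of the 15 family members by symbol (86.7%, beside 48.8% of all genes) reached 1 FPKM, BAX and BOK being the exceptions.

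The comparison of pro- with anti-apoptotic members was made first within the BCL2 family. The 8 pro-apoptotic genes (effectors and BH3-only) ranged from 0.110 to 435 FPKM with a median of 8.63 FPKM, and the 3 guard genes from 1.30 to 21.1 FPKM with a median of 17.7 FPKM. BAD, BID and BMF lay above the highest guard gene, PMAIP1 and BAK1 within the range of the guard genes, and BCL2L11, BAX and BOK below the lowest. The groups therefore overlapped, with pro-apoptotic genes on both sides. The median of log2(FPKM + 1) was lower in the pro-apoptotic genes by a difference of -1.00, but the sign turned without BCL2L1 (0.52), without MCL1 (0.40) or with means in place of medians (0.18). The sign stayed without BAD or BID (-1.32 each), without BCL2A1 (-1.12) and without BAX (-0.67). The summed level went the other way, at 543 FPKM for pro- and 40.2 FPKM for anti-apoptotic genes, a ratio of 13.5. BAD alone held 80.0% of the pro-apoptotic sum, and without it the ratio was 2.70. The ratio was 8.17 with rows added, 5.69 without the highest gene of each side, 28.5 without BCL2L1 and 24.2 without MCL1.

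**Figure D2:**
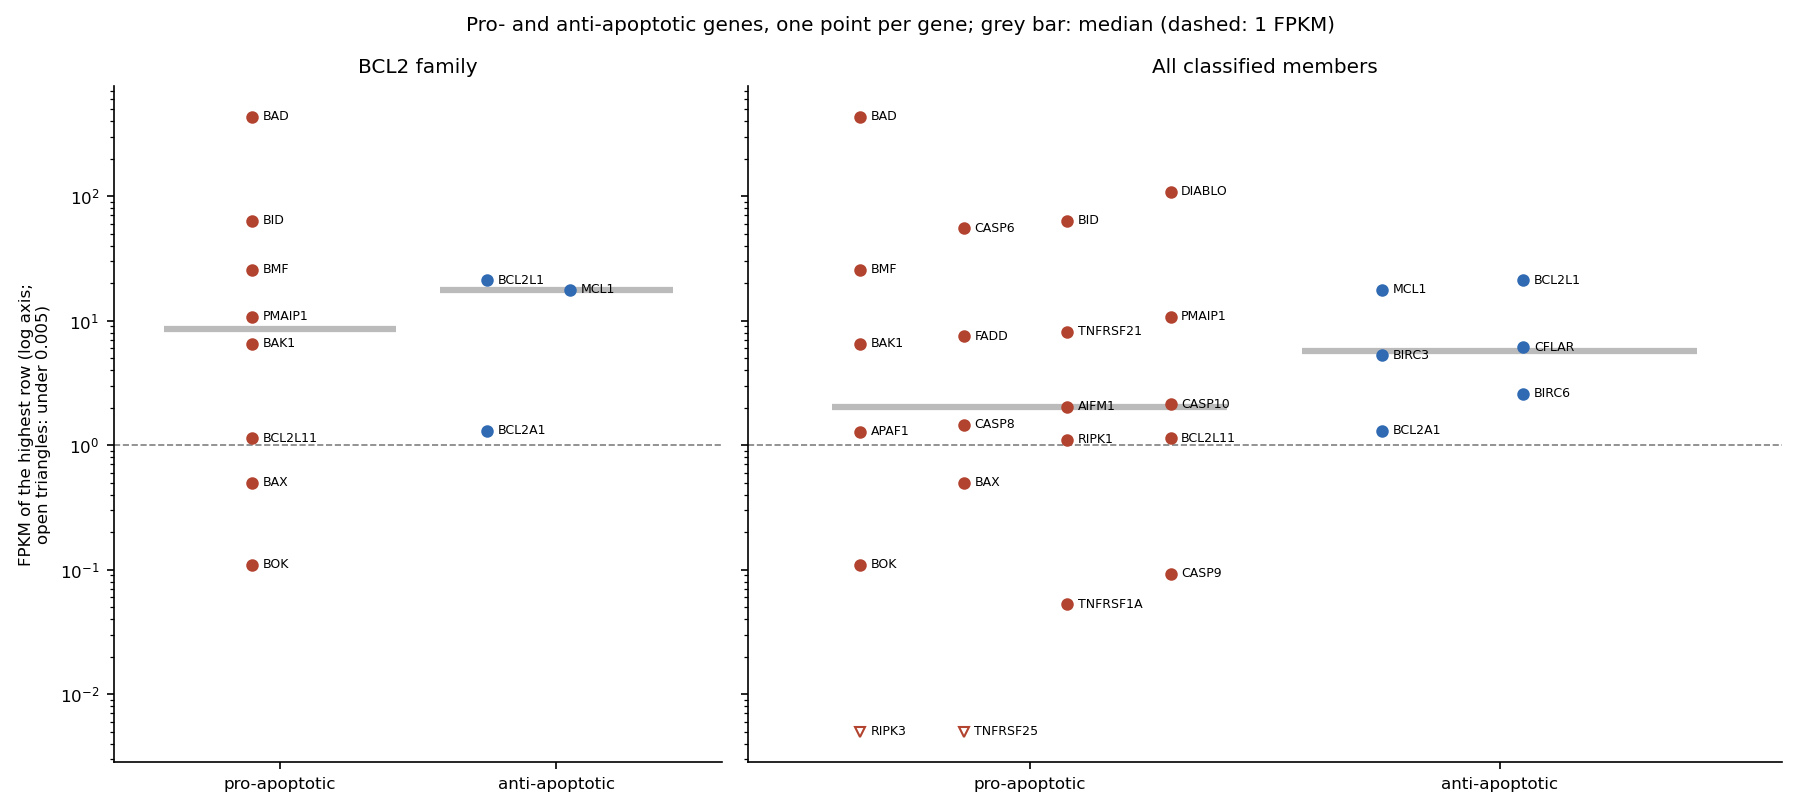
FPKM of the highest row on a log axis for pro-apoptotic and anti-apoptotic genes, in the BCL2 family (left, 8 and 3 genes) and among all classified members (right, 21 of 23 and 6 genes drawn); each point is 1 gene, grey bars are medians over all genes of the side, and open triangles lie under 0.005 FPKM. The pro-apoptotic genes spread both above and below the anti-apoptotic ones, from BAD at 435 FPKM to RIPK3 and TNFRSF25 under 1e-06 FPKM.

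Across all members that the lists assign to a side, by the role each is best known for in cell death, 23 pro-apoptotic genes (the above, caspases of both routes, APAF1, DIABLO, AIFM1, FADD, RIPK1, RIPK3 and receptors with a death domain) had a median of 2.04 FPKM. Some of these, such as RIPK1 and AIFM1, also have roles in survival. The 6 anti-apoptotic genes (guards, IAP genes and CFLAR) had a median of 5.68 FPKM. At 1 FPKM or more stood 17 of 23 (73.9%) and 6 of 6, beside 48.8% of all genes. The difference of medians on the log2(FPKM + 1) scale was -1.13, and it turned to 0.17 when only genes at 0.1 FPKM or more were used. That filter takes out only low pro-apoptotic genes (CASP9, TNFRSF1A, TNFRSF25 and RIPK3), so it could move the difference only upward. The lowest anti-apoptotic gene, BCL2A1, stood at 1.30 FPKM. Of the 23 genes, 6 lay above the highest anti-apoptotic gene, 8 within the anti-apoptotic range and 9 below the lowest. The summed levels were 771 and 54.1 FPKM, a ratio of 14.2, which was 8.81 with rows added, 6.21 without BAD and 4.20 without BAD and DIABLO. The anti-apoptotic side is the less complete one, since 7 of its 13 listed genes were not analysed here, BCL2, XIAP and BIRC2 among them, against 5 of 28 on the pro-apoptotic side.

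Downstream of the mitochondrion, the measured genes were uneven. DIABLO stood at 108.6 FPKM, rank 450 in the table, and 84.4 times as high (47.6 times with rows added) as APAF1, the scaffold of the caspase-activating complex, at 1.29 FPKM. With its 4 rows added APAF1 came to 2.28 FPKM. AIFM1, a mitochondrial flavoprotein gene needed for the respiratory chain and also linked to caspase-independent death, stood at 2.04 FPKM. AIFM2, a suppressor of ferroptosis, was at 0.119 FPKM and AIFM3 was listed at 0. CYCS, the cytochrome c gene and no member, stood at 829 FPKM.

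Among the caspase genes described here, CASP6 was the highest. CASP6, an executioner that cuts nuclear lamins in dying cells, stood at 55.3 FPKM and at 85.2 FPKM with both rows added. The initiators of the receptor route, CASP10 and CASP8, stood at 2.13 and 1.47 FPKM, and CASP6 was 26.0 times as high as CASP10 (40.0 times with rows added). CASP9, the initiator of the mitochondrial route, was the lowest of the 3 initiators at 0.0930 FPKM. Their median was 1.47 FPKM, and CASP2 was not analysed here. CASP1, the caspase of the inflammasome, and CASP14, the caspase of the epidermis, were listed at 0 in every row. CASP8AP2, named for a partner of CASP8 and known for histone mRNA processing, stood at 5.20 FPKM and at 12.3 FPKM with its 4 rows added.

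Of the IAP genes, whose proteins block caspases or tag them and their partners with ubiquitin, 2 were measured. BIRC3 stood at 5.26 FPKM and BIRC6, a giant ubiquitin-conjugating enzyme, at 2.60 FPKM. DIABLO, their antagonist, was 20.6 times as high as BIRC3 on the highest row and 9.56 times with all rows added, since BIRC3 has 10 rows that came to 11.4 FPKM.

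In the receptor route FADD and CFLAR stood higher than most receptors, though below TNFRSF12A, TNFRSF19 and TNFRSF21. The adaptor gene TRADD, no member, was lower than both at 0.653 FPKM. TRAF2, also an adaptor gene and no member, was listed at 0 in the rows that end the table, where every row is at 0. FADD was at 7.47 FPKM, 5.10 times CASP8, which it recruits. CFLAR, the inhibitor that competes with CASP8, was at 6.09 FPKM, 4.16 times CASP8 and 2.86 times CASP10. With all rows added CFLAR came to 10.6 FPKM, above FADD, and to 7.27 times CASP8 and 5.00 times CASP10. The rows of CFLAR, CASP10 and CASP8 follow each other in the table with no other gene between them. RIPK1, a kinase that can turn receptor signals to survival or death, stood at 1.10 FPKM, just above the threshold. RIPK2, which serves bacterial sensing by NOD receptors, was at 6.96 FPKM, and RIPK4, known from epidermal differentiation, at 0.179 FPKM. RIPK3, the kinase of necroptosis, was under 1e-06 FPKM, and its substrate gene MLKL, no member, stood at 0.0279 FPKM.

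TNFRSF receptor genes were the low part of the members. At 1 FPKM or more stood 5 of 15 (33.3%, beside 48.8% of all genes), against 35 of the 46 other members (76.1%). Among receptors with a death domain, TNFRSF21 stood at 8.15 FPKM, while TNFRSF1A, the main receptor of tumour necrosis factor, was at 0.0529 FPKM and TNFRSF25 under 1e-06 FPKM. TNFRSF21 was thus 154 times as high as TNFRSF1A, or 79.0 times with rows added, ratios that rest on a TNFRSF1A level near 0. TNFRSF10A and TNFRSF10B were not analysed here, and FAS, a death receptor gene outside the symbol rule, stood at 2.34 FPKM.

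Of the 12 other receptors, which the lists do not place among those with a death domain, 4 reached 1 FPKM (33.3%, beside 48.8% of all genes). TNFRSF12A, the receptor of TWEAK, was the highest of all 15 receptors at 29.7 FPKM, and TNFRSF19, a receptor known from developing epithelia and the nervous system, followed at 15.5 FPKM. TNFRSF17, known from plasma cells, stood at 4.85 FPKM and TNFRSF6B, a soluble decoy for FAS ligand, at 2.1 FPKM. Below the threshold TNFRSF1B was highest at 0.328 FPKM. TNFRSF13C, TNFRSF13B and TNFRSF11A lay between 0.0102 and 0.128 FPKM, and TNFRSF4, TNFRSF8, TNFRSF9 and TNFRSF11B, mostly receptors of lymphocytes and bone, were listed at 0. The 3 immune markers above 1 FPKM stand beside the level of TNFRSF17, and their part in it was not tested.

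The PDCD genes share a name given for their link to cell death, and their known roles differ widely. At 1 FPKM or more stood 7 of 8 (87.5%, beside 48.8% of all genes). PDCD6, a calcium-binding protein of membrane repair and vesicle traffic, was at 365 FPKM, rank 109 in the table. PDCD10, a scaffold of kinase complexes, stood at 116 FPKM and PDCD5 at 108 FPKM. PDCD4, an inhibitor of translation, was at 16.7 FPKM, PDCD7, a part of the minor spliceosome, at 9.04 FPKM and PDCD11, a ribosomal RNA processing factor, at 7.64 FPKM. PDCD1LG2, a ligand of the immune checkpoint receptor, stood at 1.08 FPKM, the lowest member above the threshold, and PDCD1, the receptor itself, at 0.0257 FPKM. DIDO1, a chromatin reader, was at 0.384 FPKM. The 8 PDCD genes held 623 FPKM of the 1523 FPKM that the highest rows of all members add up to, and BAD held 435 FPKM.

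**Figure D3:**
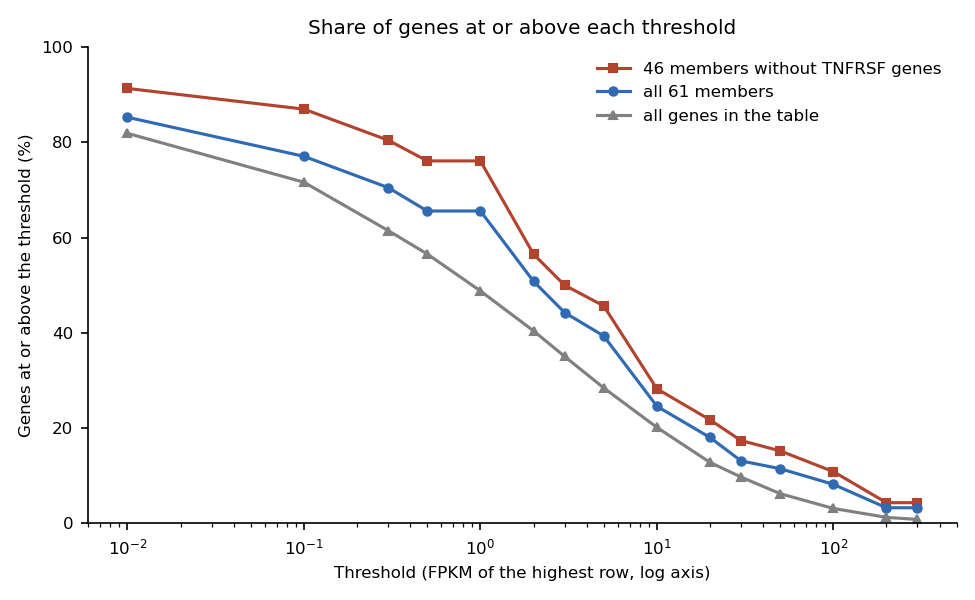
Percent of genes at or above each FPKM threshold (log axis) for all 61 members, for the 46 members without TNFRSF genes and for all 15877 genes. The members lie above all genes at every threshold drawn, and the curve of the 61 members is flat from 0.5 to 1 FPKM at 65.6%.

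No member lay between BAX at 0.497 FPKM and PDCD1LG2 at 1.08 FPKM, so the count of 40 was the same at 0.5 FPKM, where the share of all genes was 56.5%. Just above the threshold were RIPK1, BCL2L11 (1.13 FPKM), BCL2L15 (1.19 FPKM), APAF1 (1.29 FPKM) and BCL2A1 (1.30 FPKM). Just below BAX were DIDO1, TNFRSF1B, RIPK4 and TNFRSF13C. At 5 FPKM 24 members remained (39.3%, beside 28.4% of all genes).

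Several transcript rows were listed for 40 of the 61 members. Of the 26 of these that reached 1 FPKM, 9 had at least 90% of their summed level in the highest row, among them BAD (98.3%), PDCD6 (96.4%), BMF (96.0%) and BID (94.4%). Another 14 had between 50 and 90% there. The 3 with under 50% were PDCD4 (47.9%), BIRC3 (46.3%) and CASP8AP2 (42.1%). For MCL1 the highest rows were 17.7 and 15.3 FPKM, for BCL2L1 21.1 and 10.9 FPKM, for CASP6 55.3 and 29.9 FPKM, and for PDCD4 16.7 and 16.5 FPKM. CASP8 and CASP10 had nearly all of their level in 1 row each, with the other row under 1e-06 FPKM. Adding rows moved no member across 1 FPKM.

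**Figure D4:**
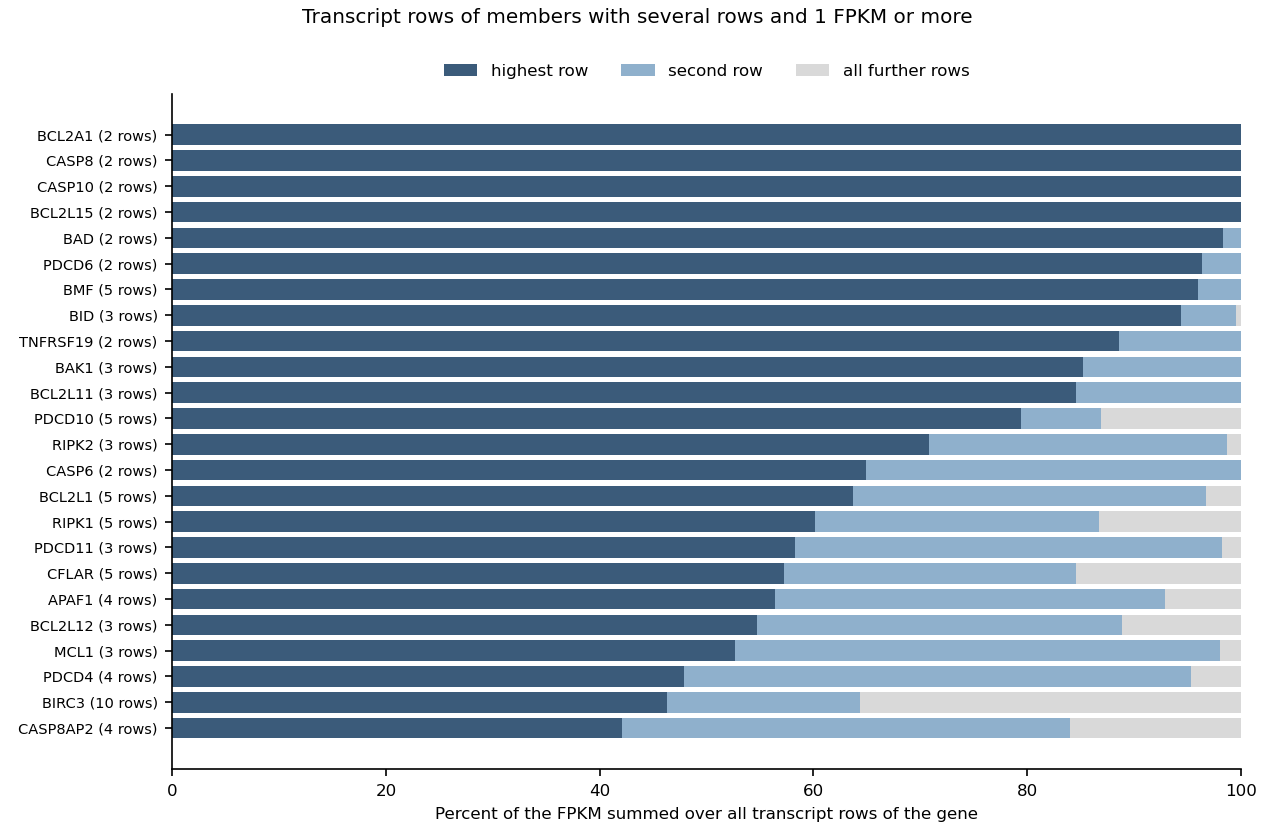
For 24 of the 26 members with several transcript rows and 1 FPKM or more, bars from 0 to 100% show how the summed FPKM divides into the highest row, the second row and all further rows. BAD has 98.3% in its highest row, MCL1 52.6% and CASP8AP2 42.1%.

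Partners of cell death without a member symbol were taken from a list of 40 genes, of which 34 were measured. At 1 FPKM or more stood 21 (61.8%, beside 48.8% of all genes), with a median of 1.89 FPKM over the 34. After CYCS the highest were VDAC3, a channel of the outer mitochondrial membrane, at 142 FPKM, API5, an inhibitor of apoptosis outside the IAP family, at 56.2 FPKM and TMBIM6, a calcium channel-like protein of the endoplasmic reticulum that restrains death, at 33.0 FPKM. BNIP3 and BNIP3L, receptors for mitophagy, stood at 30.7 and 23.7 FPKM, and BIRC5, the survivin gene with a role in cell division, at 25.8 FPKM. CRADD, an adaptor of CASP2, was at 27.6 FPKM, the co-chaperone gene BAG1 at 21.8 FPKM and PARP1, a caspase substrate that senses DNA breaks, at 11.9 FPKM.

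Of the 34 partners, 13 lay below 1 FPKM, and some of these are given here. The ligand genes FASLG, TNFSF10 and TNF stood at 0.921, 0.232 and 0.0519 FPKM, and TRADD, the adaptor of TNFRSF1A, at 0.653 FPKM. The pore genes of pyroptosis, GSDME and GSDMD, were at 0.360 and 0.293 FPKM, and PYCARD, the inflammasome adaptor, at 0.0393 FPKM. DFFB, the nuclease that cuts DNA in apoptosis, stood at 0.563 FPKM and its inhibitor DFFA at 2.27 FPKM. HTRA2, which is released from mitochondria like DIABLO, was at 2.73 FPKM and HRK, a further BH3-only gene, at 1.12 FPKM. TRAF2 and SIVA1 were listed at 0 in the rows that end the table, where every row is at 0.

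**Figure D5:**
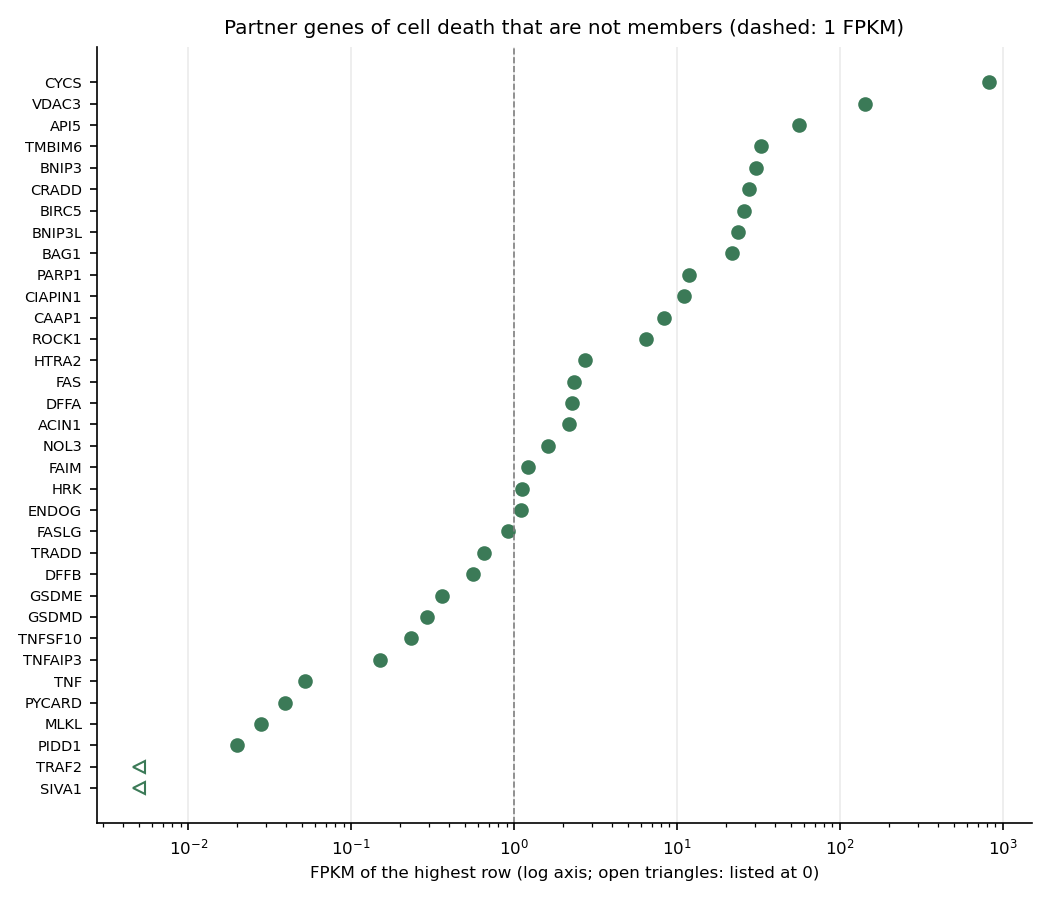
FPKM of the highest row on a log axis for the 34 measured partner genes, sorted by level, with a dashed line at 1 FPKM and open triangles for genes listed at 0. CYCS at 829 FPKM and VDAC3 at 142 FPKM are the 2 above 100 FPKM, and 13 genes lie below 1 FPKM.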

How the data were processed

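Per the labels' protocols the libraries were made with Smart-seq2, which copies polyadenylated RNA into full-length cDNA. Per the file headers the deposited values are FPKM, with 1 row per Ensembl transcript. The name of the deposited file says that 4 replicates were merged, without saying whether reads or values were. The submitters' processing notes name TopHat2 2.1.1 and Cufflinks 2.2.1, with other tools and the build susScr11, with no role for any of them, so the aligner and build behind this table are not stated. The depth is unknown.

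Here a gene's level is its highest row (Python 3.11.15, pandas 2.3.3), and 1 FPKM is the threshold. FPKM depends on the transcript length assumed and on how reads were shared among rows. The scripts were tested on simulated data. Members and gene lists were chosen with earlier results of these data known. Named with values were all members of the main roles, other TNFRSF and PDCD genes at 1 FPKM or more with the highest below, the 10 highest partners and those at 0. Other members and partners were named after their values were seen. Tests on libraries were not possible on 1 column. Some members enter the counts and summaries but are not reported here by name. No sequences are given.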

Additional observations from a re-analysis of the deposited data

How the results depend on the processing

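The share of members at 1 FPKM or more was set beside the 95% Wilson interval of 40 of 61, 53.0 to 76.3%. The interval is a yardstick only, since genes are not replicates. The share stayed within it at 0.5 FPKM, with rows added, after scaling to TPM and without TNFRSF and PDCD symbols. Leaving out the trailing rows could not change the share, since no member lies there, and 49.5% of all genes then reached 1 FPKM. After scaling to TPM the share of members was 70.5%, beside 61.3% of all genes, a smaller gap than the 65.6 and 48.8% in FPKM. The column adds up to 304889 FPKM, so scaling to TPM raises every value alike and acts as a lower threshold. At 0.3 FPKM the shares were 70.5 and 61.5%. The share of members was 39.3% at 5 FPKM and 24.6% at 10 FPKM. Once genes below 0.1 FPKM were left out it was 85.1%, beside 68.1% of all genes kept. Within the BCL2 family the difference of medians was -1.76 with rows added, and it turned with means (0.18), without the highest gene of each list (0.19), without BCL2L1 (0.52) and without MCL1 (0.40). It kept its sign without BAD or BID (-1.32 each), without BCL2A1 (-1.12), without BAX (-0.67), with a pseudocount of 0.1 (-1.07) and after scaling to TPM (-1.06). The ratio of sums was 8.17 with rows added, 5.69 without the highest genes, 2.70 without BAD, 28.5 without BCL2L1 and 24.2 without MCL1, and stayed above 1 throughout. Over all classified members the difference was -1.87 with rows added, -0.25 with means and 0.17 among genes at 0.1 FPKM or more. That last filter takes out only pro-apoptotic genes. Their ratio was 8.81 with rows added, 6.21 without BAD and 4.20 without BAD and DIABLO. The alternatives that leave out named genes were chosen after seeing the data. The cause of these shifts was not tested beyond what each alternative leaves out, adds or rescales. Of 54 members above 0, 16 moved by over 1.5 times with rows added. No paired analysis was possible because the 4 libraries share 1 merged column, and leaving out a library could not be run either. With no counts, no limit set by depth can be given.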

Other observations

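Of the 144 transcript rows of the members, 66 stood at 1 FPKM or more, 47 between 1e-06 and 1 FPKM, 15 above 0 and under 1e-06 FPKM, and 16 at 0. Rows under 1e-06 FPKM made up 10.4% of the members' rows and 12.1% of all rows of the table. RIPK3 and TNFRSF25 were the members with no row above that level that were not listed at 0. Several rows were listed for 65.6% of the members and for 55.5% of all genes.

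Besides CFLAR, CASP10 and CASP8, members with adjoining rows in the table were BCL2L13 with BID and TNFRSF8 with TNFRSF1B. The levels of BCL2L13 and BID differed widely, at 3.80 and 63.8 FPKM. TNFRSF8 was listed at 0 and TNFRSF1B stood at 0.328 FPKM, both below the threshold of 1 FPKM.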
